A study of Homo sapiens with 9 samples.

Results

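ERK signalling switches on genes that hold it in check. RAS activates RAF, RAF activates MEK and MEK phosphorylates ERK, which in turn raises the transcription of phosphatases and adaptor proteins that act back on the cascade, and of transcription factors that carry its output. Because their RNA follows the activity of the pathway, such genes are widely used as its transcriptional readout, also in colorectal cancer, where the antibody cetuximab blocks EGFR upstream of RAS. The genes described here are the 10 MAPK feedback and output genes DUSP4, DUSP5, DUSP6, SPRY2, SPRY4, SPRED1, SPRED2, ETV4, ETV5 and PHLDA1. They were chosen by symbol, with earlier results of these data known. All 10 were among the 58920 gene symbols listed in each count table. They were also among the 19102 genes tested, those with 10 or more counts when the 9 libraries were summed.

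LIM1215 is a human colorectal cancer cell line that responds to cetuximab. LIM1215-R1 and LIM1215-R2 were derived from it in parallel by long exposure to rising cetuximab concentrations, while LIM1215-parental cells were kept in culture without the antibody, and all were grown in the same serum-containing medium and sequenced without treatment. The resistant lines are mixed populations, not single clones, and the study reports activating HRAS mutations in a subpopulation of each. Both lines were kept in medium with cetuximab as a rule. The sources used here do not say how long before RNA extraction the antibody was withdrawn. There were 3 libraries per line, which the study calls technical replicates. P-values therefore measure the spread between libraries, and differences between the lines cannot be told apart from those between cultures or harvests.

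Total counts were 13737416 to 18725014 per library, and the counts of the 10 genes ranged from 129 to 3115 in a library. Levels are CPM, counts relative to the library total after scaling with TMM factors of 0.984 to 1.02, and means carry the SD of 3 libraries. Fold changes are on the log2 scale with their standard error (SE), and each adjusted p comes from the quasi-likelihood test of edgeR, corrected by Benjamini-Hochberg for all genes tested. A gene passed when its adjusted p did not exceed 0.01, and a differentially expressed gene (DEG) also had a log2 fold change of at least 1.5 in either direction, the size the study used. Of 10 markers of colorectal epithelium, 9 were above 1 CPM in every line and KRT20 had 0 counts in all libraries. Whether a gene listed at 0 was not expressed or its reads were not assigned to it was not tested. The leukocyte markers PTPRC and CD3E and the fibroblast marker COL1A2 had 0 counts throughout. Over the marker lists, the summed level of epithelial genes was 12585 to 12933 CPM in parental libraries, 16119 to 16415 CPM in LIM1215-R1 libraries and 14596 to 15003 CPM in those of LIM1215-R2, most of it KRT8 and KRT18. Of the 9 epithelial markers tested, 4 were higher and 4 lower than in parental cells in each resistant line. Of all genes tested, 14.0% passed as higher and 13.4% as lower in LIM1215-R1, and 12.3% and 11.6% in LIM1215-R2. The summed level of fibroblast markers stayed at 1.13 to 2.95, of endothelial markers at 0 to 0.722 and of leukocyte markers, nearly all of it CD68, at 6.84 to 14.2 CPM. CD68 was 0.70 higher on the log2 scale in LIM1215-R1 (adjusted p = 9.24e-05).

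The promoters of 4 of the genes are shown because their RNA levels set the range described below, from PHLDA1 and DUSP6, which rose most among them, through SPRED1 to SPRY2, which did not pass against parental cells. Each sequence is the 250 bases before the RefSeq start of the gene in GRCh38.p14, read 5′ to 3′ on the strand of the gene. Capitals mark the letters CGGAAG or their reverse complement CTTCCG, a core bound by ETS factors. The DUSP6 window is chr12:89352502-89352751, that of PHLDA1 chr12:76031777-76032026 and that of SPRY2 chr13:80341127-80341376, all on the minus strand, and the SPRED1 window is chr15:38252586-38252835 on the plus strand.
DUSP6: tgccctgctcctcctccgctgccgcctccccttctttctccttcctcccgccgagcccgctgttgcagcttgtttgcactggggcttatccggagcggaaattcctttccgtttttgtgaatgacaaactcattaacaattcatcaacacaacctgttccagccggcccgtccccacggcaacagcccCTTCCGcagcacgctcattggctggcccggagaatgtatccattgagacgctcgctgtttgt
PHLDA1: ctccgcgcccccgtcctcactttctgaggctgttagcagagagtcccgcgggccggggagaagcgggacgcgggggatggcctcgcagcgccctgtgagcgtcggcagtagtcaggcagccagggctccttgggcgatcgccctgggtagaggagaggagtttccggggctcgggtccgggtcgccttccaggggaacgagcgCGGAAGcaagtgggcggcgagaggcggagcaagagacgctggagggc
SPRED1: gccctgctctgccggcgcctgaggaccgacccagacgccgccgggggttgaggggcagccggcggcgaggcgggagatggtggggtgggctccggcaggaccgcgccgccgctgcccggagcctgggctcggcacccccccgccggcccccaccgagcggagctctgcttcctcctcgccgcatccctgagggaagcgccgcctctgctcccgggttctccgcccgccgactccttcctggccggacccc
SPRY2: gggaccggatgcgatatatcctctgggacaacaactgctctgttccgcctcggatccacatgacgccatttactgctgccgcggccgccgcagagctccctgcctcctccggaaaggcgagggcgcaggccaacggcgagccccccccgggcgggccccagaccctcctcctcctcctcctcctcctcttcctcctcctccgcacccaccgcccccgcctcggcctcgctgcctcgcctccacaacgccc

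Promoter sequences were given for 6 of the 10 genes, DUSP6, SPRY2, SPRY4, SPRED1, SPRED2 and PHLDA1. The core CGGAAG was found in 2 of them, DUSP6 and PHLDA1, and in 16.5% of 35114 RefSeq promoters of the same length. In DUSP6 it lay 62 to 57 bases before the start on the opposite strand, and in PHLDA1 47 to 42 bases before the start on the strand of the gene. The longer ETS letters CCGGAAGT, which contain this core, the AP-1 letters TGANTCA, the CRE letters TGACGTCA and the CArG box, each searched on both strands, were not in these 6 windows and were found in 3.42%, 6.57%, 1.65% and 1.16% of all promoters. GC content was 57.2% in the DUSP6 window, 70.4% in those of PHLDA1 and SPRY2 and 78.4% in that of SPRED1, against a median of 58.0% over all promoters. These matches describe the letters only.

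The first question was whether the transcriptional output of ERK differed between each resistant line and the parental line. In LIM1215-R1, 9 of the 10 genes passed and were higher than in parental cells, where 14.0% of all genes tested passed and were higher. SPRY2 alone did not pass. In either direction 27.3% of all genes tested passed, and 13.4% of all genes tested passed as lower. In LIM1215-R2, 8 of the 10 were higher, against a background of 12.3% (23.8% in either direction, 11.6% lower), and SPRY2 and ETV4 did not pass. Counted by libraries alone, 9 genes in LIM1215-R1 and 8 in LIM1215-R2 lay above all parental libraries, as did 21.6% and 21.2% of all genes, and SPRY2 in LIM1215-R1 lay below them, as did 22.4% (21.5% in LIM1215-R2). The median log2 fold change of the 10 genes was 0.86 in LIM1215-R1 and 1.00 in LIM1215-R2, beside -0.01 and -0.0037 over all genes tested. DUSP5, DUSP6 and PHLDA1 were DEGs in LIM1215-R1, where 3.24% of all genes were higher DEGs, and again in LIM1215-R2, where 2.63% were. DEGs of either direction made up 5.14% and 4.82% of all genes, and lower ones 1.91% and 2.19%. Because the 10 genes were chosen with earlier results of these data known, the shares of all genes are a description and not an independent test. Both comparisons use the same parental libraries, and their values are set side by side below.

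**Figure D1:**
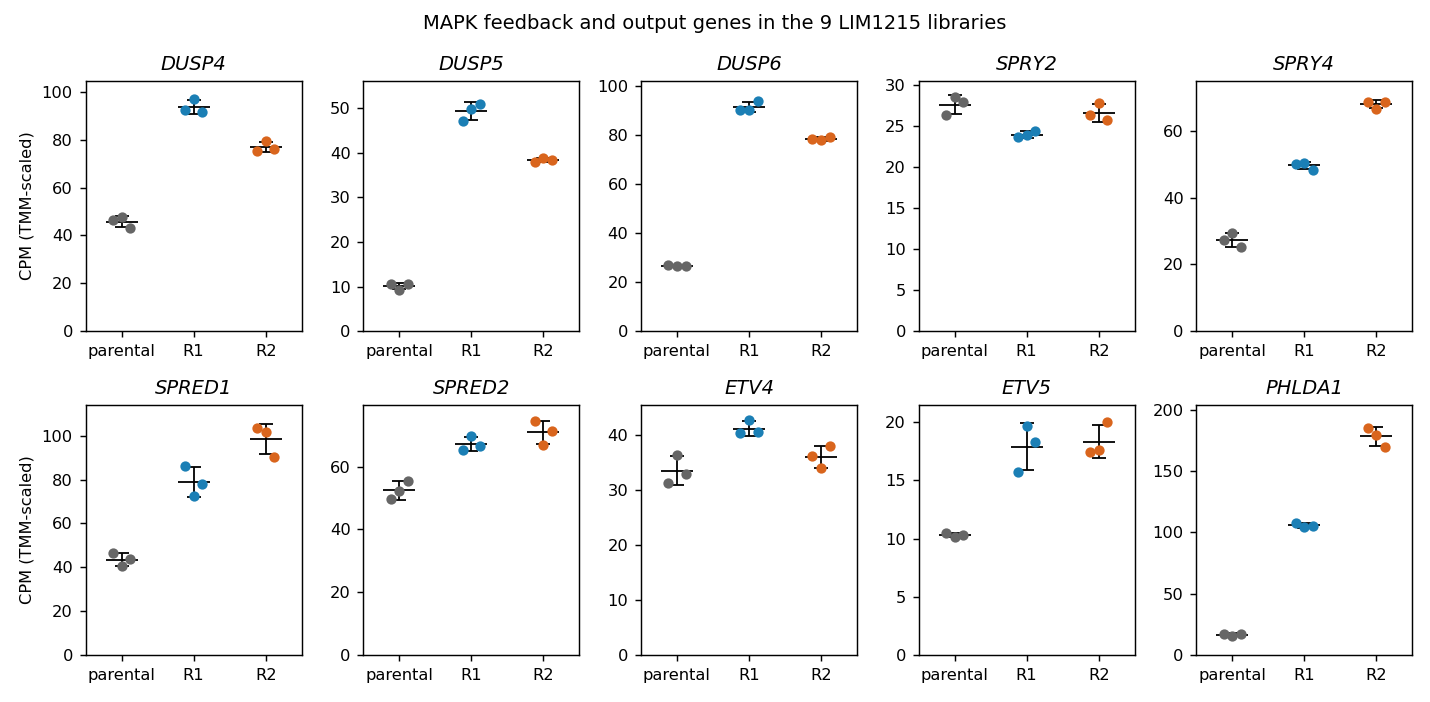
CPM (TMM-scaled, linear axis from 0) of each of the 10 genes in the 9 libraries; points are libraries, the horizontal bar is the mean and the error bar the SD of 3 libraries. PHLDA1 lies between 15.2 and 17.4 CPM in parental libraries and between 170 and 185 CPM in LIM1215-R2, while the SPRY2 libraries of all lines lie between 23.7 and 28.6 CPM.

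DUSP4, DUSP5 and DUSP6 encode dual-specificity phosphatases that remove the activating phosphates of MAP kinases. DUSP6 is cytoplasmic and acts on ERK, DUSP5 does so in the nucleus, and DUSP4 is a nuclear phosphatase of ERK and other MAP kinases. DUSP6 lies on chromosome 12 of hg38 from 89347235 to 89352501. Its level was 27.0, 26.5 and 26.8 CPM in the parental libraries, 90.0, 90.3 and 93.8 CPM in LIM1215-R1 and 78.4, 77.8 and 79.1 CPM in LIM1215-R2. No library of a resistant line came near the parental range, and LIM1215-R2 lay below LIM1215-R1 without overlap. Against parental cells DUSP6 was 3.41-fold higher in LIM1215-R1 (log2 fold change 1.77, SE 0.0591, adjusted p = 5.05e-19) and 2.93-fold higher in LIM1215-R2 (log2 fold change 1.55, SE 0.0595, adjusted p = 1.03e-17). In LIM1215-R2 its log2 fold change stood just above the DEG threshold of 1.5.

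DUSP5, on chromosome 10 from 110497907 to 110511533, had 129 to 200 counts in the parental libraries, where ETV5 had 140 to 196. It was at 10.6, 9.32 and 10.5 CPM in parental libraries, at 47.1, 49.9 and 50.9 CPM in LIM1215-R1 and at 37.9, 38.8 and 38.3 CPM in LIM1215-R2. All resistant libraries stood far above the highest parental one, and again those of LIM1215-R1 were the highest. The rise was 4.83-fold in LIM1215-R1 (log2 fold change 2.27, SE 0.0798, adjusted p = 1.51e-18) and 3.76-fold in LIM1215-R2 (log2 fold change 1.91, SE 0.0815, adjusted p = 1.06e-16). DUSP4, on chromosome 8 from 29333064 to 29350684, rose less, from 46.4, 47.8 and 43.2 CPM in parental libraries to 92.5, 96.9 and 91.7 CPM in LIM1215-R1 and 75.4, 79.5 and 76.0 CPM in LIM1215-R2. Its log2 fold change was 1.04 (SE 0.0584, adjusted p = 4.37e-14) in LIM1215-R1 and 0.75 (SE 0.0590, adjusted p = 4.4e-11) in LIM1215-R2, below the DEG size in both. DUSP4, DUSP5 and DUSP6 thus shared an order of the lines, with parental cells lowest, LIM1215-R2 between and LIM1215-R1 highest. No libraries of neighbouring lines overlapped in them, as in 3.33% of all genes tested.

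SPRY2 and SPRY4 encode sprouty proteins, which dampen signalling from receptor tyrosine kinases to RAS and RAF. The 2 paralogues gave different values. SPRY4, on chromosome 5 from 142310430 to 142325021, was at 27.2, 29.3 and 25.1 CPM in the parental libraries, 50.0, 50.5 and 48.2 CPM in LIM1215-R1 and 68.5, 66.4 and 68.6 CPM in LIM1215-R2. The lines did not overlap, and LIM1215-R2 was the highest. Its log2 fold change was 0.87 in LIM1215-R1 (SE 0.0679, adjusted p = 3.73e-11) and 1.33 in LIM1215-R2 (SE 0.0664, adjusted p = 3.49e-15). SPRY2, on chromosome 13 from 80335976 to 80341126, was at 26.4, 28.6 and 28.0 CPM in parental libraries, 23.7, 23.9 and 24.4 CPM in LIM1215-R1 and 26.3, 27.8 and 25.7 CPM in LIM1215-R2. All LIM1215-R1 libraries lay below the parental range, whereas those of LIM1215-R2 overlapped it. Its log2 fold change of -0.20 in LIM1215-R1 (95% confidence interval -0.36 to -0.05) missed the threshold with an adjusted p of 0.0352, and that in LIM1215-R2 was -0.05 (interval -0.21 to 0.10, adjusted p = 0.653). The upper end of the interval in LIM1215-R2 corresponds to a 1.07-fold level.

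SPRED1 and SPRED2 are relatives of the sprouty proteins that bring neurofibromin, the product of NF1, to the membrane, where it switches RAS off. SPRED1, on chromosome 15 from 38252836 to 38357249, was at 46.7, 40.4 and 43.6 CPM in parental libraries, 86.0, 72.3 and 78.0 CPM in LIM1215-R1 and 104, 102 and 90.6 CPM in LIM1215-R2. Its replicates were wide apart, with a coefficient of variation of 8.74% in LIM1215-R1 where counting alone gives 2.81%, but the lines did not overlap. The log2 fold change was 0.85 in LIM1215-R1 (SE 0.0710, adjusted p = 1.44e-10) and 1.18 in LIM1215-R2 (SE 0.0702, adjusted p = 1.42e-13). SPRED2, on chromosome 2 from 65307175 to 65432599, changed less, from 49.5, 52.3 and 55.4 CPM in parental libraries to 65.1, 69.7 and 66.6 CPM in LIM1215-R1 and 74.4, 67.0 and 71.4 CPM in LIM1215-R2. Both resistant lines lay above the parental range and overlapped each other. SPRED2 was 28.0% higher in LIM1215-R1 (log2 fold change 0.36, SE 0.0620, adjusted p = 4.01e-05) and 35.3% higher in LIM1215-R2 (log2 fold change 0.44, SE 0.0618, adjusted p = 2.13e-06).

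ETV4 and ETV5 encode ETS transcription factors of the PEA3 group, through which ERK signalling acts on transcription. ETV5, on chromosome 3 from 186046314 to 186109089, rose from 10.5, 10.1 and 10.3 CPM in parental libraries to 15.7, 19.7 and 18.3 CPM in LIM1215-R1 and 17.4, 17.6 and 19.98 CPM in LIM1215-R2. The resistant libraries covered nearly the same range and stood clear of the parental ones. Its log2 fold change was 0.80 (SE 0.104, adjusted p = 5.17e-07) in LIM1215-R1 and 0.83 (SE 0.103, adjusted p = 2.55e-07) in LIM1215-R2. ETV4, on chromosome 17 from 43527846 to 43546340, was at 31.3, 36.4 and 32.9 CPM in parental libraries, at 40.4, 42.8 and 40.5 CPM in LIM1215-R1 and at 36.1, 34.1 and 38.0 CPM in LIM1215-R2. It passed in LIM1215-R1, where it was 0.30 higher on the log2 scale (SE 0.0723, adjusted p = 0.00143), and LIM1215-R2 overlapped the parental libraries with a log2 fold change of 0.11 (interval -0.04 to 0.26, adjusted p = 0.289). The ETV4 call in LIM1215-R1 was lost without LIM1215-parental replicate 1 (adjusted p = 0.0153, range over 18 alternatives 0.000251 to 0.0153), and its log2 fold change was 0.19 once GC content and transcript length were corrected for.

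PHLDA1 encodes a protein with a pleckstrin homology-like domain whose transcription is induced by ERK signalling. It showed the largest change of the 10 genes in both lines. PHLDA1 lies on chromosome 12 from 76025447 to 76031776 and was at 17.1, 15.2 and 17.4 CPM in parental libraries, at 108, 104 and 105 CPM in LIM1215-R1 and at 185, 180 and 170 CPM in LIM1215-R2. All resistant libraries stood far above the parental ones, and LIM1215-R2 exceeded LIM1215-R1 by more than the spread of either. PHLDA1 was 6.37-fold higher in LIM1215-R1 (95% confidence interval 5.80 to 6.98, log2 fold change 2.67, adjusted p = 8.41e-22) and 10.7-fold higher in LIM1215-R2 (interval 9.79 to 11.7, log2 fold change 3.42, adjusted p = 4.95e-24). By adjusted p it ranked 10 of the 19102 genes tested in LIM1215-R1 and 2 in LIM1215-R2, and its log2 fold change was higher than that of 97.6% and 98.7% of them.

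**Figure D2:**
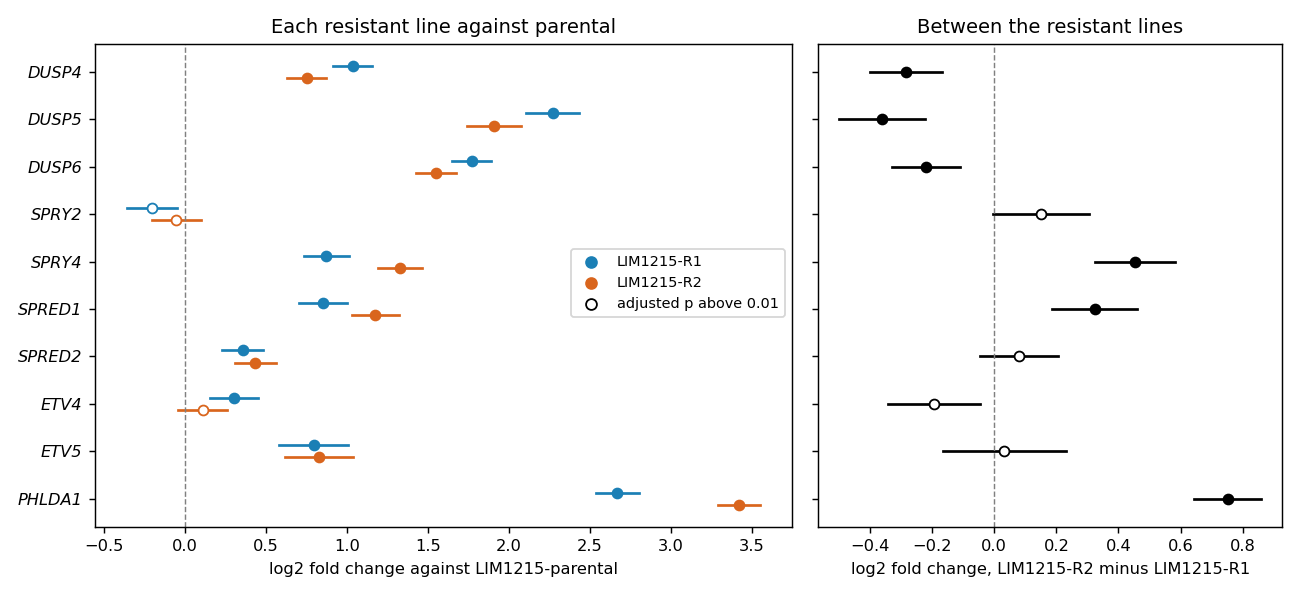
Log2 fold changes with 95% confidence intervals of the edgeR fit for each gene, on the left for LIM1215-R1 and LIM1215-R2 against LIM1215-parental and on the right for LIM1215-R2 against LIM1215-R1; open circles have an adjusted p above 0.01. On the right, DUSP4, DUSP5 and DUSP6 lie below 0 (-0.28, -0.36 and -0.22), and SPRY4, SPRED1 and PHLDA1 above it (0.45, 0.32 and 0.75).

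The next comparison asked whether the 2 resistant lines differed from each other in these genes. Of the 10, 3 had higher levels in LIM1215-R2, as had 3.39% of all genes tested, and 3 had lower levels, as had 3.77% (7.16% in either direction). None reached the DEG size, which 0.764% of all genes did (0.215% higher, 0.550% lower), and DESeq2 likewise called 0 DEGs among the 10. Libraries of the lines did not overlap for 8 of the 10 genes, 4 higher and 4 lower, against 14.0% of all genes in each direction. The genes higher in LIM1215-R2 were PHLDA1, differing by 0.75 on the log2 scale (SE 0.0526, adjusted p = 4.43e-11), SPRY4 with 0.45 (SE 0.0624, adjusted p = 8.07e-06) and SPRED1 with 0.32 (SE 0.0668, adjusted p = 0.00129). Lower in LIM1215-R2 were the 3 phosphatase genes among the 10, DUSP5 with -0.36 (SE 0.0673, adjusted p = 0.000431), DUSP4 with -0.28 (SE 0.0559, adjusted p = 0.00081) and DUSP6 with -0.22 (SE 0.0532, adjusted p = 0.00538). These differences were smaller than those from the parental line, between 14.2% lower for DUSP6 and 68.4% higher for PHLDA1.

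SPRY2, SPRED2, ETV4 and ETV5 did not pass between the resistant lines. Their intervals reached from -0.01 to 0.31 for SPRY2, -0.04 to 0.20 for SPRED2, -0.34 to -0.05 for ETV4 and -0.17 to 0.23 for ETV5 on the log2 scale. In SPRY4, SPRED1 and PHLDA1 the libraries lay in the order parental, LIM1215-R1, LIM1215-R2 without overlap, an order held by 2.29% of all genes tested. The opposite order of the resistant lines above the parental one was held by DUSP4, DUSP5 and DUSP6, and by 3.33% of all genes tested. The number of genes that passed between the lines fell from 6 to 3 without LIM1215-R2 replicate 1, when DUSP4 (adjusted p = 0.0101), DUSP6 (adjusted p = 0.0287) and SPRED1 (adjusted p = 0.0209) were lost, while their highest adjusted p over the 18 alternatives was 0.0101, 0.0448 and 0.0209 and the lowest 7.59e-06, 0.000275 and 8.52e-06. DUSP6 also lost its call with scaling by total counts alone (adjusted p = 0.0105) and without LIM1215-R1 replicate 3, LIM1215-R2 replicate 2 or LIM1215-R2 replicate 3, and SPRED1 without LIM1215-R1 replicate 3 or LIM1215-R2 replicate 2, and the log2 fold change of SPRED1 was 0.17 once GC content and length were corrected for.

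Because scaling between libraries cancels in a ratio of 2 genes counted in the same library, the relation of related genes was also read from such ratios. SPRY4 had 0.983 ± 0.0764 counts for each count of SPRY2 in parental cells, 2.07 ± 0.0781 in LIM1215-R1 and 2.55 ± 0.144 in LIM1215-R2. SPRED1 had 0.834 ± 0.0946 counts for each count of SPRED2 in parental cells, 1.18 ± 0.141 in LIM1215-R1 and 1.39 ± 0.123 in LIM1215-R2. In both pairs of paralogues no resistant library fell within the parental range. The ratio of ETV5 to ETV4 was 0.309 ± 0.0293, 0.434 ± 0.0390 and 0.508 ± 0.0231 in the same order of the lines. Among phosphatases, DUSP6 had 0.586 ± 0.0327, 0.976 ± 0.0457 and 1.02 ± 0.0352 counts for each count of DUSP4. PHLDA1 had 0.618 ± 0.0386 counts for each count of DUSP6 in parental cells, 1.16 ± 0.0377 in LIM1215-R1 and 2.28 ± 0.111 in LIM1215-R2. This ratio alone does not give the order of the lines for either gene. By CPM, PHLDA1 was higher and DUSP6 lower in LIM1215-R2 than in LIM1215-R1. For all 6 ratios computed, both resistant lines stood clear of the parental libraries (n = 3 per line, exact two-sided permutation test, p = 0.1, the smallest that 3 against 3 libraries can give). Between the resistant lines, the libraries overlapped for SPRED1 to SPRED2 and for DUSP6 to DUSP4 (p = 0.2 in the same exact test).

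**Figure D3:**
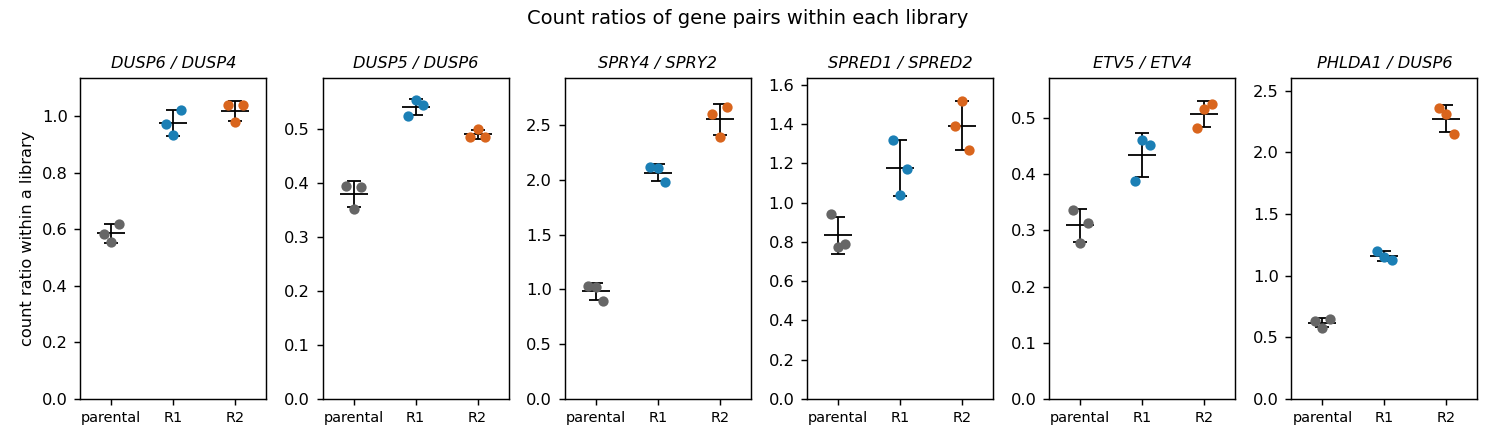
Ratio of the raw counts of 2 genes within each library (linear axis from 0) for 6 pairs; points are libraries, the horizontal bar is the mean and the error bar the SD of 3 libraries. The ratio of SPRY4 to SPRY2 lies between 0.895 and 1.03 in parental libraries and from 1.98 upwards in the resistant ones.

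Levels of different genes were compared per length, as CPM for each kilobase of the longest GENCODE transcript of the gene. In LIM1215-parental, ETV4 had the highest level, 14.4 ± 1.12 CPM per kb, followed by SPRED2 with 11.6 ± 0.654 and SPRY2 with 10.2 ± 0.425, and PHLDA1 and ETV5 were lowest with 2.80 ± 0.195 and 2.52 ± 0.0478. No libraries of neighbouring genes in this order overlapped. In LIM1215-R1, DUSP6 came first with 25.2 ± 0.577 CPM per kb, ahead of DUSP5 with 19.9 ± 0.798, whereas PHLDA1, ETV4 and DUSP4 followed at 17.9, 17.7 and 16.9 with overlap between neighbours. PHLDA1 moved to the top in LIM1215-R2, with 30.2 ± 1.29 CPM per kb, before DUSP6 with 21.6 ± 0.180. SPRED2, DUSP5 and ETV4, at 15.7, 15.5 and 15.4, could not be told apart by their spread, nor could DUSP4, SPRED1 and SPRY4 as neighbours in the order. ETV5 was lowest in both resistant lines with 4.39 ± 0.498 and 4.49 ± 0.351 CPM per kb.

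The other genes of the pathway were read from lists. For all genes tested, 14.0% passed as higher and 13.4% as lower in LIM1215-R1, and 12.3% and 11.6% in LIM1215-R2. Between the resistant lines, 3.39% passed as higher and 3.77% as lower in LIM1215-R2. The list counts here and below stand beside these shares. Of 22 other ERK outputs, 21 could be tested, and 11 were higher and 2 lower in LIM1215-R1, with a median log2 fold change of 0.32. In LIM1215-R2, 9 were higher and 1 lower, with a median of 0.31. These counts and medians take no account of whether ERK signalling raises or lowers a gene, and TXNIP was among the higher ones (0.18 and 0.52). FOSL1, an AP-1 subunit, rose from 16.5 ± 1.82 CPM to 43.2 ± 3.44 in LIM1215-R1 and 41.3 ± 2.25 in LIM1215-R2 (log2 fold changes 1.40 and 1.33, adjusted p = 2.35e-13 and 6.61e-13). PLAUR, the urokinase receptor, rose from 6.40 ± 0.948 to 18.3 ± 0.0293 and 17.1 ± 0.684 CPM (1.53 and 1.43, adjusted p = 7.6e-12 and 3.48e-11). The chemokine CXCL8 was at 34.2 ± 3.77 CPM in parental cells and rose to 107 ± 8.47 CPM in LIM1215-R1 (log2 fold change 1.64), more than in LIM1215-R2 (0.95), and the lines differed by -0.69 (adjusted p = 6.81e-08). Not all outputs moved this way. FOS, an immediate early gene, was lower in both lines, by -0.63 in LIM1215-R1 (adjusted p = 1.78e-05) and by -0.77 in LIM1215-R2 (adjusted p = 1.25e-06), and EGR1 was lower in LIM1215-R1 (-0.29, adjusted p = 0.00787) and did not pass in LIM1215-R2 (-0.02). MYC gave 0.04 and 0.01 and did not pass. FOS, EGR1 and TXNIP are named here after their values were seen.

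Of 13 paralogues of the feedback and output genes, 11 could be tested. DUSP2, DUSP7 and PHLDA3 were higher in LIM1215-R1, with log2 fold changes of 0.65, 0.48 and 1.23, and in LIM1215-R2, with 0.51, 0.48 and 0.47, and the other 8 did not pass. Over all 11, the median log2 fold change was -0.01 in LIM1215-R1 and -0.12 in LIM1215-R2. DUSP2 and DUSP7 encode further MAP kinase phosphatases, and PHLDA3 is a p53 target that restrains AKT. PHLDA3 differed between the resistant lines by -0.76, lower in LIM1215-R2 (adjusted p = 2.33e-08), while its relative PHLDA1 was higher. DUSP2 (-0.14, adjusted p = 0.423) and DUSP7 (-0.01, adjusted p = 0.968) did not pass between the resistant lines. DUSP1, DUSP10, DUSP16 and SPRY1, all with a mean of at least 5 CPM in each line, did not pass in either comparison with parental cells. ETV1 had 10 counts over the parental libraries and 0 in the resistant ones, at least 3.23-fold lower against 3 counts over the libraries of a resistant line, and did not pass.

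**Figure D4:**
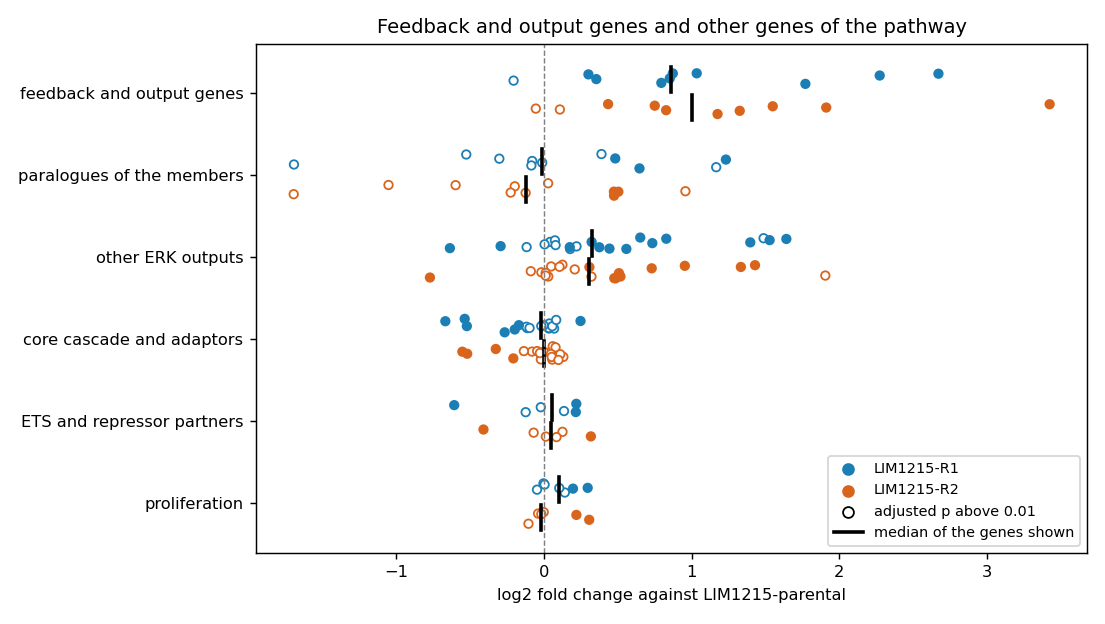
Log2 fold changes against LIM1215-parental of the 10 feedback and output genes and of 5 lists of other genes; each circle is a gene, open circles have an adjusted p above 0.01, vertical bars are medians, the vertical position within a list is jittered, and ETV1 is drawn at its bound of -1.69. The medians of the 10 genes are 0.86 and 1.00, those of other ERK outputs 0.32 and 0.31, and those of core cascade genes -0.02 and 5.27e-05.

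For the cascade that drives these genes, the RNA differences were small. Of 20 genes of the core cascade and its adaptors, 19 could be tested, with median log2 fold changes of -0.02 in LIM1215-R1 and 5.27e-05 in LIM1215-R2. MAP2K2 was higher in LIM1215-R1 (0.25, adjusted p = 0.00158). Among the genes lower there were the exchange factors SOS1 (-0.67) and SOS2 (-0.52), EGFR (-0.26), the RAF inhibitor gene PEBP1 (-0.20) and the RAS inactivator NF1 (-0.17). In LIM1215-R2, SOS1 (-0.52), SOS2 (-0.32) and PEBP1 (-0.21) were among the lower genes, and EGFR (0.05) did not pass. Of this list, 7 genes passed in LIM1215-R1 and 4 in LIM1215-R2. With 1 library left out, these counts were 5 to 7 and 3 to 4. HRAS was listed with at most 1 count in a library and was not tested. The study read activating HRAS mutations from RNA sequencing of both resistant lines and detected HRAS protein on blots. These counts therefore do not show that HRAS RNA was absent. Whether they reflect the level of the RNA or the way reads were assigned to genes was not tested, and the expression of HRAS cannot be read from them. Between the resistant lines, EGFR (0.31, adjusted p = 2.3e-05) and NF1 (0.22, adjusted p = 0.00269) were higher in LIM1215-R2. This count of 2 was 1 without LIM1215-R1 replicate 3, LIM1215-R2 replicate 1 or LIM1215-R2 replicate 2. EGR3, SPRY3, PHLDA2 and ETS1 of the other lists likewise had under 10 counts in all, with the same limit.

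Of 7 ETS factors and repressors that act on such outputs, 6 could be tested. ELK4 was higher in LIM1215-R1 (0.22, adjusted p = 0.00344) and LIM1215-R2 (0.32, adjusted p = 5.78e-05), ERF was higher in LIM1215-R1 (0.22, adjusted p = 0.00954), and GABPA was lower in both (-0.61 and -0.41, adjusted p = 3.27e-06 and 0.000509). CIC, the repressor of ETV4 and ETV5, did not pass (-0.02 and 0.01). The count of 3 genes passing in LIM1215-R1 was 2 to 3 with 1 library left out. Of 7 proliferation genes, MKI67 and TOP2A were higher, by 0.20 and 0.30 in LIM1215-R1 and by 0.31 and 0.22 in LIM1215-R2, and CCNB1, CCNA2, PCNA, MCM2 and BIRC5 did not pass. In LIM1215-R2 the count of 2 was 1 without its replicate 1 or 2. Over all 7 proliferation genes, the median log2 fold change was 0.11 in LIM1215-R1 and -0.02 in LIM1215-R2. Some proliferation and epithelial markers thus differed between the lines, and their part in the differences of the feedback genes was not tested. List genes outside the fixed size rule are named because their counts were small, after their values were seen.

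The profiles of DUSP6 and PHLDA1 were also compared with all other genes of at least 10 CPM on average, 9293 in all, by the correlation of log2 CPM over the 9 libraries, which mainly follows the levels of the 3 lines. DUSP6, taken as the usual ERK readout, was most alike to SH3GL3 (Pearson r = 0.9993), IGFBP3 (0.9993) and EPAS1 (0.9988). SH3GL3 was at 0.0984 CPM in parental cells, at 19.4 CPM in LIM1215-R1 cells and at 11.7 CPM in LIM1215-R2 cells, and reached the mean of 10 CPM only through the resistant lines. IGFBP3, which encodes an IGF-binding protein, was at 32.4 CPM in parental cells, 178 CPM in LIM1215-R1 cells and 138 CPM in LIM1215-R2 cells. EPAS1, which encodes the hypoxia factor HIF-2α, was at 52.0, 161 and 146 CPM, and like DUSP6 both were highest in LIM1215-R1. PHLDA1, which of the 10 genes differed most between the resistant lines, was most alike to MOSPD1 (Pearson r = 0.9989) and the chloride channel gene CFTR (0.9987). CFTR was at 33.4, 97.9 and 131 CPM, rising from parental cells through LIM1215-R1 to LIM1215-R2. The libraries share depth and line, and these values describe likeness only.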

How the data were processed

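RNA of the parental line and both resistant lines was sequenced in 3 libraries each with a stranded poly(A) protocol. The authors aligned paired-end reads to hg38 with STAR and used htseq-count 0.9.1 with its reverse-strand setting to count them, and deposited raw counts without normalization. The gene annotation is not given in the sources used here. The htseq-count lines of unassigned reads were not in the tables used.

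The analysis used edgeR 4.0.16 and limma 3.58.1 in R 4.3.3. Genes were kept if their counts summed to 10 or more, scaled with TMM and fitted in 1 quasi-likelihood model of 9 libraries in 3 groups, and p-values were adjusted over all 19102 genes. The SE was derived from the test statistic. Intervals and the limit of 3 counts for a gene at 0 cover error between libraries or of counting only. A count of 0 in a single library allows up to 0.160 to 0.218 CPM. Counts of replicate pairs differed by more than sampling noise, with chi-square values of 1.89 to 6.58 per degree of freedom. The test was tried on simulated counts first.

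The 10 genes and the lists were chosen with earlier results of these data known. The genes named are these 10, list genes that passed with a log2 fold change of 1 or more in either direction, and the 3 nearest profiles of DUSP6 and of the one of the 10 that differed most between the resistant lines. Some genes that these rules select are not reported here. Alternatives were DESeq2 1.42.0 with and without lfcShrink, other scaling and filters, fits to 6 libraries, a block for the replicate number, leaving out each library in turn and, added after the data were seen, removal of trends on GC content and length, known for 86.3% of genes tested and all 10 described. ETV5 shares 4651 bases with DGKG on the same strand, and SPRED2 shares 6986 with a non-coding RNA, where reads may be split or set aside. Positions are from RefSeq on GRCh38.p14, whose chromosomes are those of hg38.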

Additional observations from a re-analysis of the deposited data

Results flagged for a closer look

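Against the same parental libraries, the changes of 6 genes differed between the resistant lines, tested as LIM1215-R2 against LIM1215-R1 in the edgeR fit (3 libraries per line, Benjamini-Hochberg adjustment over all genes tested). PHLDA1 differed by 0.75 on the log2 scale, SPRY4 by 0.45 and SPRED1 by 0.32, each higher in LIM1215-R2 in 3 of 3 libraries. DUSP5 differed by -0.36, DUSP4 by -0.28 and DUSP6 by -0.22, each lower in LIM1215-R2 in 3 of 3 libraries. Of all genes tested, 7.16% passed between these lines, 3.39% as higher and 3.77% as lower in LIM1215-R2. Libraries of the lines did not overlap for 14.0% of all genes in each direction. PHLDA1, SPRY4 and DUSP5 passed in all 18 alternatives, DUSP4 in 17, SPRED1 in 15 and DUSP6 in 13.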

How the results depend on the processing

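Over 18 alternatives and 30 values, the fold changes of the 10 genes kept their direction and their side of the threshold in 528 of 540 cases, lost the call in 10 and changed sign in 2. The changed signs were both of ETV5 between the resistant lines, which had not passed, with -0.055 without LIM1215-R1 replicate 1 and -0.034 without LIM1215-R2 replicate 3, in a range of -0.055 to 0.11 with 1 library left out. FOSL1 between the resistant lines, not passing either, changed to 0.040 once GC content and length were corrected for. At the DEG size, 3 of the 10 genes were called in LIM1215-R1, 3 in LIM1215-R2 and 0 between the resistant lines by edgeR and by DESeq2's Wald test. In the edgeR fit to all libraries, 5.14%, 4.82% and 0.764% of all genes tested reached this size in the same comparisons. Without the size threshold, 27.3%, 23.8% and 7.16% of all genes passed there. With 1 library left out, 8 to 9 of the 10 genes passed in LIM1215-R1, 8 in LIM1215-R2 and 3 to 6 between the resistant lines. In the same fits 1 to 3 core cascade genes passed between the resistant lines, and 0 to 1 proliferation genes there, 2 to 3 in LIM1215-R1 and 1 to 2 in LIM1215-R2. Between the resistant lines, 1 proliferation gene passed when every library needed 10 counts, with DESeq2, with lfcShrink or with the replicate block, and 2 under the correction for GC content and length, which also gave 4 in LIM1215-R1 and 1 core cascade gene between the lines. The causes were not tested. With the replicate number as a block, 9, 8 and 6 of the 10 genes passed. Of 9 same-numbered pairs, 3 correlated over 0.1 (range -0.106 to 0.274), and 4 of 9 libraries correlated best with their own number. Whether the numbers pair the libraries cannot be told from this. Other scaling moved the median of all genes by at most -0.034 on the log2 scale, and with total counts alone DUSP6 no longer passed between the resistant lines (adjusted p = 0.0105, range over alternatives 0.000275 to 0.0448). Counts as low as 129 for DUSP5 and 140 for ETV5 in a parental library limit the precision of these genes.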
